A study of Mus musculus with 4 samples.

Results

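The SOX and forkhead genes encode transcription factors that bind DNA through an HMG box (SOX) or a winged-helix forkhead domain (FOX). Members were taken by name from the array annotation, as gene names that begin with Sox or Fox, a class letter for Fox, and a digit. Of the names that fit, 6 were left out by the same rule (Sox10, Sox14, Foxa1, Foxa2, Foxb1 and Foxj1), and 56 names are described here, 17 of them Sox and 39 Fox, on 59 probe sets, beside 21265 genes with an identifier of their own on the array. Each gene was represented by its probe set of highest mean log2 signal.

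The RNA came from the hypothalamus of male mice aged 12 weeks. One group of 2 arrays, titled DFosB A and B, came from mice whose genotype is labelled ENOI2DeltaFosB, and the other group of 2 arrays, titled Control A and B, came from wild-type mice. ΔFosB is a shortened splice form of FosB, a member of the AP-1 family of transcription factors, and the transgene's name refers to Eno2, the gene of neuron-specific enolase. No treatment was given to either group. The labels name neither the cells that carry the transgene product nor the number of animals behind an array, so the p-values speak of the variation among these 4 arrays alone, and that variation may be technical.

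SOX factors are grouped by sequence. SOXB1 factors (Sox1, Sox2, Sox3) hold neural progenitors in an undifferentiated state and stay on in glia and in cells that line the ventricles. SOXC factors (Sox4, Sox11, Sox12) act in newborn neurons, SOXE factors (Sox8, Sox9, Sox10) act in glia, and SOXF factors (Sox7, Sox17, Sox18) act in blood vessels. Among the forkhead factors, FOXP factors are repressors found in sets of neurons of striatum, thalamus and cortex, and FOXO factors are held out of the nucleus by insulin and Akt signalling. In the hypothalamus FOXO1 is known for its action on feeding neurons.

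Signals were in the linear units of the MAS5 algorithm. Groups were compared with limma on log2 signals over the 14520 genes in the upper 60% of mean signal, a limit at a signal of 717. A gene is said to have risen or fallen where its Benjamini-Hochberg adjusted p was under 0.05. Median signals per array were 976 and 967 in ΔFosB and 918 and 946 in control, and the median log2 fold change of all tested genes was 0.02. As a measure of background, 1216 probe sets for olfactory or vomeronasal receptors, genes of sensory epithelia, had a 95th percentile at a signal of 831 (called the receptor percentile below). In bulk tissue, fewer cells of a type and less RNA per cell cannot be told apart.

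Of the 56 names, 42 lay past the filter, 16 Sox and 26 Fox, and 11 Fox genes lay below it. The probe sets labelled Sox15 and Foxm1 carry several gene identifiers and were not tested. The probe set labelled Foxo3 carries the identifier of Tppp2 in RefSeq, a gene of another family, and is not counted as a forkhead gene below. The gene Foxo3 is read from the 2 probe sets labelled Foxo3a, which carry its identifier. Foxl2os, the opposite-strand transcript of Foxl2, is in no forkhead subfamily and is counted among the Fox genes by its name alone. Just inside the filter lay Foxo6, at a mean signal of 723, and Foxb2, at 758. Just outside it lay Foxl1, at 713, and Foxn1, at 712. For 4 of the 42 genes, Sox4, Sox17, Foxb2 and Foxo6, the means of both groups lay below the receptor percentile.

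On ΔFosB arrays 3 of the 42 genes rose (Sox1, Sox2 and Sox11) and 4 fell (Sox8, Foxn3, Foxp1 and Foxp2). That is 16.7%, beside 13.1% of all genes tested, so the share called is close to the background. In the upward direction all genes gave 6.18% and in the downward direction 6.91%. By family, 3 of 16 Sox genes rose and 1 fell, and 0 of the 26 Fox genes described here rose in limma (8 were higher at an unadjusted p under 0.05) and 3 fell. Over both families 16 genes had an unadjusted limma p under 0.05, beside 30.5% of all genes. The median log2 fold change was 0.05 for the Sox genes and 0.09 for the Fox genes, against 0.02 for all genes. That median over all genes moved with the signal filter, from 0.053 with no filter to -0.004 in the upper 40% of signal. None of the 7 called genes changed by more than 1.49-fold. Both arrays of one genotype lay above both of the other in 30 of the 42 genes (71.4%), beside 60.3% of all genes. The remaining 35 genes had log2 fold changes between -0.16 and 0.31, and 9 of them had an unadjusted limma p under 0.05.

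The promoters of Sox11, Sox2, Sox8 and Foxn3, the genes with the largest fold changes among the called genes with a listed window, are given here. ΔFosB is an AP-1 factor, and whether it acts on these promoters was not tested. RefSeq listed 44 promoter windows (GRCm38.p6, 250 bases before to 50 after the start) for 36 of the member genes, and 8 windows for 6 of the 7 called genes, all but Foxp2. Capitals mark the AP-1 motif TGANTCA, the SOX motif ACAAAG or the forkhead motif GTAAACA, each searched on both strands and in these windows not overlapping another. The gene rose for the first pair of sequences and fell for the second pair.
Sox11, chr12:27342669-27342968, strand -: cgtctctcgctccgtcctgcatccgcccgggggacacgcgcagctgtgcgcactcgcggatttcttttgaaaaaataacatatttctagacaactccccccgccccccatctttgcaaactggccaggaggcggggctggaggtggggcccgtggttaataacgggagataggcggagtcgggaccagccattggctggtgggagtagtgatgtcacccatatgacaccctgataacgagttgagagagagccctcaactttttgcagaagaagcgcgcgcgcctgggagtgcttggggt
Sox2, chr3:34649745-34650044, strand +: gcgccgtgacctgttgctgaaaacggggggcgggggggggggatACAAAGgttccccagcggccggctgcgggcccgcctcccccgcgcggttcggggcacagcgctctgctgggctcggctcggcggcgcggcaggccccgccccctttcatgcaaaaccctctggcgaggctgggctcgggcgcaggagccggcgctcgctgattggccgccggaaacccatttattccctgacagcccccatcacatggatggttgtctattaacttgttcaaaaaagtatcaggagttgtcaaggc
Sox8, chr17:25570637-25570936, strand -: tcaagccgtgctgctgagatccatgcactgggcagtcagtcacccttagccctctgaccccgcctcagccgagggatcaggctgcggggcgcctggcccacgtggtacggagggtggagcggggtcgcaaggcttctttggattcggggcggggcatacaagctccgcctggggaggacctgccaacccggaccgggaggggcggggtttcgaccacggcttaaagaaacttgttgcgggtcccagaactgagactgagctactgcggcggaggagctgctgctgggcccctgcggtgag
Foxn3, chr12:99450025-99450324, strand -: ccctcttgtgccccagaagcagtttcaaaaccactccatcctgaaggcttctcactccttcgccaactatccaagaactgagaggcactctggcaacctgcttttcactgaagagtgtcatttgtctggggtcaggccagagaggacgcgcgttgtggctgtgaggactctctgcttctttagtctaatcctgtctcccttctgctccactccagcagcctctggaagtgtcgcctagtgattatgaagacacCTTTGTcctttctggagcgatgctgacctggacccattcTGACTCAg

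The AP-1 motif stood in 1 of the 8 windows of called genes, that of Foxn3, as TGACTCA from 43 bases after the start. Among all 44 member windows it stood in 2 (4.55%), the other being that of Foxe3, against 7.81% of the 32851 promoters listed. The SOX motif stood in 4 of the 8 windows. These are the windows of Sox2 and Foxn3 and 2 of the 3 windows of Foxp1. It stood in 27.3% of the member windows and 18.7% of all promoters, and 5 of the 12 member windows that hold it belong to Sox6. The forkhead motif stood in the window of Sox12 alone among the member windows and in 3.65% of all promoters. The median GC content was 63.2% in member windows and 52.7% in all. A match says only that the letters are there.

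**Figure D1:**
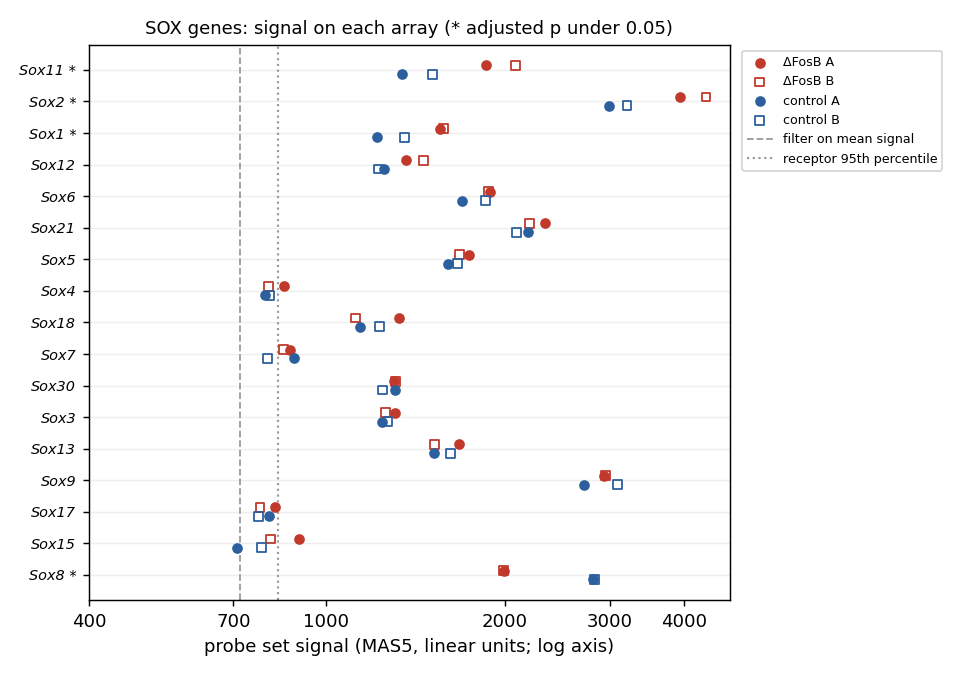
Signal of every Sox gene on each of the 4 arrays (MAS5 linear units, log axis), ordered by log2 fold change, with ΔFosB arrays in red and control arrays in blue, circles for A and squares for B. Sox11, Sox2 and Sox1 at the top have both ΔFosB arrays above both control arrays, and Sox8 at the bottom has both below. The dashed line is the filter at 717 and the dotted line the receptor percentile at 831.

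Among the SOXB1 genes, Sox2 and Sox1 rose. Sox2 encodes the progenitor factor that also marks adult astrocytes, tanycytes and ependymal cells. Its signals were 3933 and 4357 on the ΔFosB arrays and 2996 and 3208 on the control arrays. Both ΔFosB arrays were above both control arrays. The group means were 4145 ± 299 and 3102 ± 150 (SD, n = 2 each), which is 0.42 on the log2 scale (SE 0.07, limma adjusted p = 0.00585). Its signal was far above the receptor percentile on every array. Sox1 is expressed with Sox2 in progenitors and in some neurons of the ventral forebrain. It had signals of 1554 and 1578 in ΔFosB against 1221 and 1356 in control. The groups did not overlap, and its log2 fold change was 0.28 (SE 0.07, limma adjusted p = 0.0337). That call ended when the arrays were centred on their medians (adjusted p = 0.0609), without ΔFosB replicate B (0.0724) and without control replicate A (0.224).

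The third SOXB1 gene, Sox3, is known for its part in the formation of the hypothalamus and pituitary. Its signals were 1309 and 1260 in ΔFosB against 1244 and 1273 in control. The groups overlapped, and the log2 fold change was 0.03, with a 95% interval from -0.11 to 0.17. Its sign turned with quantile normalization or median centring. The SOXB2 gene Sox21, a repressor that opposes SOXB1 factors, had signals of 2333 and 2198 in ΔFosB against 2191 and 2090 in control. Here the lower ΔFosB array lay just above the higher control array, and the gene did not pass (0.08, limma adjusted p = 0.421).

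Of the SOXC genes, which in development promote neuronal differentiation, Sox11 rose. It had signals of 1861 and 2084 on ΔFosB arrays, against 1345 and 1514 on control arrays. All ΔFosB values were above all control values. Its log2 ratio of 0.46 (SE 0.08, limma adjusted p = 0.00811) was the largest increase among the 42 genes, and with control replicate A left out it missed the threshold (0.38, adjusted p = 0.0674). Sox12 had signals of 1365 and 1459 in ΔFosB against 1251 and 1226 in control. Its groups were also apart, but it did not pass (0.19, interval 0.04 to 0.34, limma adjusted p = 0.0934). Sox4 had signals of 853 and 801 in ΔFosB against 790 and 806 in control, values at the level of the receptor probe sets, so little can be read from its log2 fold change of 0.05.

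The SOXE gene Sox8, which acts with Sox10 in oligodendrocytes, fell. Its signals were 1996 and 1988 on ΔFosB arrays and 2811 and 2829 on control arrays. The arrays of a group were nearly equal, with a difference of 0.005 on the log2 scale between the ΔFosB arrays and of 0.009 between the control arrays in size. The log2 fold change was -0.50 (SE 0.06, limma adjusted p = 0.00104), which is 1.42-fold lower. Myelin and oligodendrocyte genes fell on the same arrays: 14 of 14 tested, with a median log2 fold change of -0.66 and summed signals of 86845 and 92986 in ΔFosB against 126633 and 130506 in control. Of 7 oligodendrocyte precursor genes, 1 rose and 2 fell. The part of these cells in the Sox8 result was not tested.

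Sox9, the SOXE gene of astrocytes and ventricular cells, did not pass. It had signals of 2937 and 2948 in ΔFosB against 2715 and 3096 in control, so that both ΔFosB values lay between the control values. Its log2 fold change was 0.02, with an interval from -0.14 to 0.19. A difference between Sox8 and Sox9 in their fold changes was not tested. Of 11 astrocyte genes 1 rose (Slc1a3, a glutamate transporter, by 0.37, limma adjusted p = 0.00186) and 4 fell (among them the water channel gene Aqp4, by 0.54, adjusted p = 0.00119). Of 10 tested tanycyte and ependymal genes 5 rose and 1 fell, and the summed signal of the 11 measured was 19276 and 19835 in ΔFosB against 15314 and 14907 in control. The part of these cells in the Sox2 and Sox1 results was not tested.

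The other Sox genes gave no call. The SOXD genes Sox5, Sox6 and Sox13, which lack a transactivation domain and modulate SOXE factors, had log2 fold changes of 0.07, 0.09 and 0.03. The SOXF genes Sox7, Sox17 and Sox18 had 0.03, 0.02 and 0.04, each with overlapping groups. The group means of Sox17, 799 in ΔFosB and 787 in control, lay below the receptor percentile. Of 15 tested vessel and pericyte genes 0 rose and 5 fell, with a median of -0.18. Sox30, known from the testis, had signals of 1302 and 1308 in ΔFosB against 1310 and 1245 in control, and a log2 fold change of 0.03. Its level on these arrays is that of a single probe set and was not checked by another. The probe set labelled Sox15 had signals of 903 and 807 in ΔFosB against 709 and 780 in control, around the receptor percentile.

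**Figure D2:**
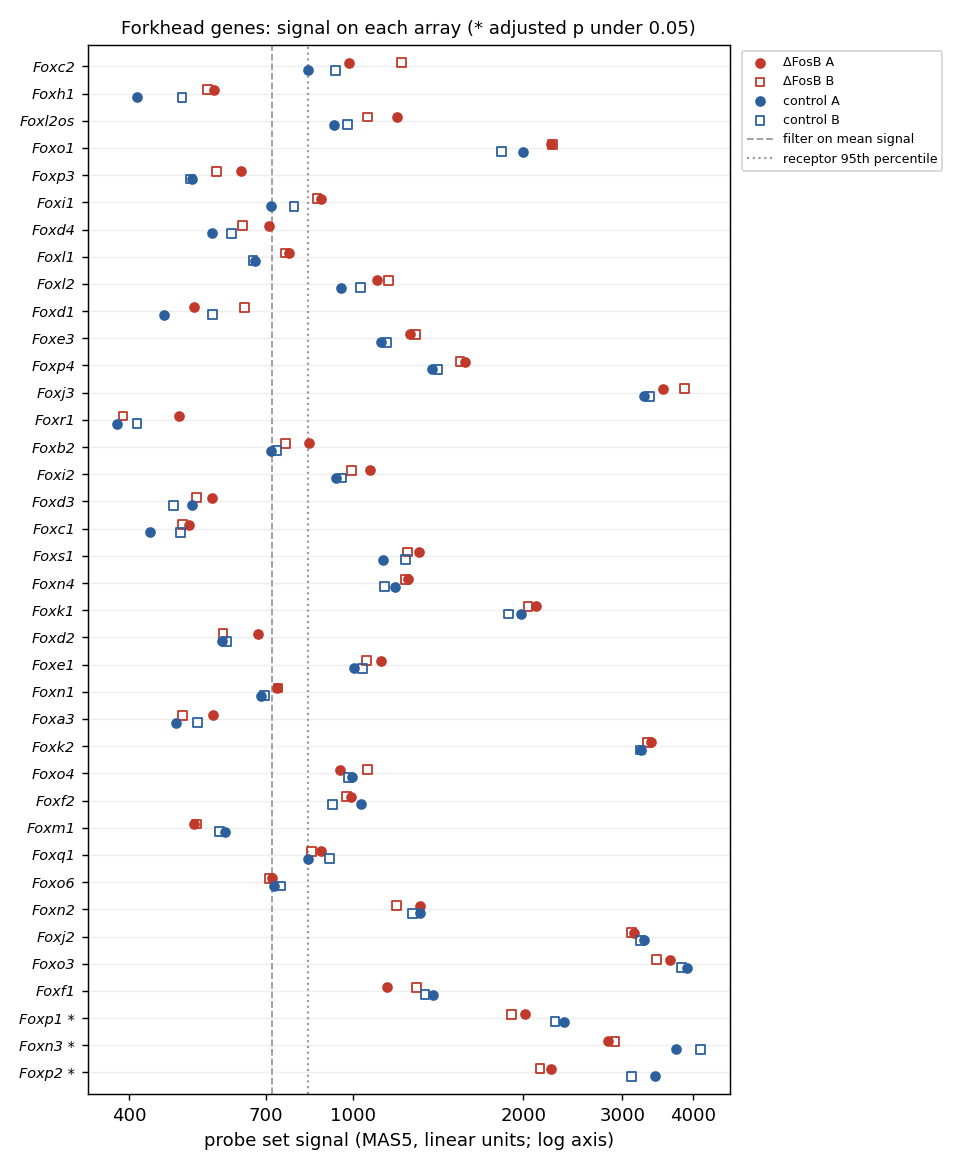
Signal of the forkhead genes on each of the 4 arrays (MAS5 linear units, log axis), ordered by log2 fold change within the list, with ΔFosB arrays in red and control arrays in blue, circles for A and squares for B. Foxp1, Foxn3 and Foxp2 at the bottom stand apart downward. Many forkhead genes lie near or left of the dotted line at 831, the receptor percentile, and Foxm1 (not tested) stands at 0 in the order.

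In the FOXP subfamily Foxp2 and Foxp1 fell. Foxp2, a repressor studied for its part in vocal and motor circuits, had signals of 2237 and 2143 on ΔFosB arrays and 3424 and 3114 on control arrays. Both ΔFosB arrays were below both control arrays. Its log2 ratio of -0.58 (SE 0.07, limma adjusted p = 0.00112) was the largest in size of the 42 genes and corresponds to 1.49-fold lower signal. Foxp1, its close relative that can pair with it, had signals of 2017 and 1909 in ΔFosB against 2367 and 2278 in control. The groups were apart, and the log2 fold change was -0.24 (SE 0.06, limma adjusted p = 0.0372). That call ended without ΔFosB replicate B (adjusted p = 0.132), control replicate A (0.207) or control replicate B (0.0845). Foxp4, the other neural member, had signals of 1575 and 1546 in ΔFosB against 1378 and 1413 in control, groups that were apart in the opposite direction, and did not pass (0.16, interval 0.02 to 0.30, limma adjusted p = 0.116). Foxp3, the factor of regulatory T cells, lay below the filter.

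Beside Foxp2, the midbrain dopamine sums were lower on both ΔFosB arrays, while the thalamic sums overlapped between groups. The summed signal of 8 thalamic genes was 23314 and 14782 in ΔFosB against 31315 and 21372 in control, so the A and B arrays of one group differed as much as the groups did, and 0 of the 8 passed in limma, with a median log2 fold change of -0.46. Foxp2 differed by 0.06 between the ΔFosB arrays and by 0.14 between the control arrays on the log2 scale. Midbrain dopamine genes had summed signals of 15442 and 16115 in ΔFosB against 46814 and 39303 in control, with 6 of 9 fallen, 0 risen and a median log2 fold change of -1.39. Of these, Slc6a3 had signals of 717 and 770 in ΔFosB, inside the receptor range, against 10241 and 7804 in control. In the striatal list 3 of 10 genes rose and 2 fell, with summed signals of 34915 and 33484 in ΔFosB against 31138 and 32339 in control. Of 5 tested cortical and hippocampal genes 2 rose and 1 fell, with overlapping sums of 12628 and 11130 in ΔFosB against 12701 and 10980 in control. The part of thalamic, midbrain, striatal or cortical tissue in the Foxp2 and Foxp1 results was not tested. Of 7 tested genes that partner FOXP factors or are reported as their targets, 1 rose, Nr2f2, which encodes the nuclear receptor COUP-TFII (0.59, SE 0.06, limma adjusted p = 0.000646), and 0 fell.

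Foxn3, a repressor linked to cell cycle checkpoints and, in liver, to glucose metabolism, fell. Its signals were 2832 and 2910 on ΔFosB arrays and 3735 and 4124 on control arrays. The groups did not overlap, and the log2 fold change was -0.45 (SE 0.07, limma adjusted p = 0.00324). A second probe set of the gene had signals of 2212 and 2618 in ΔFosB against 2925 and 3022 in control, lower on both ΔFosB arrays as well. With each probe set taken as a feature of its own, it had a log2 fold change of -0.30 and an adjusted p of 0.0521 in limma. The other FOXN genes past the filter, Foxn2 and Foxn4, had log2 fold changes of -0.05 and 0.10 and did not pass.

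No FOXO gene passed. Foxo1, through which insulin and leptin act on Pomc and Agrp neurons, had signals of 2241 and 2255 in ΔFosB against 2002 and 1831 in control. Both ΔFosB arrays were above both control arrays, and the log2 fold change was 0.23 (SE 0.07, limma adjusted p = 0.0510), just outside the threshold. It passed with robust estimation (adjusted p = 0.0418) and with probe sets of a gene averaged (0.0497). With median centring it moved away from the threshold (0.17, adjusted p = 0.153). With an array left out, its log2 fold change ran from 0.17 (without control replicate B) to 0.30 (without control replicate A). Foxo3 had signals of 3639 and 3448 in ΔFosB against 3910 and 3823 in control, a log2 fold change of -0.13 (interval -0.26 to 0.004). Its second probe set had overlapping groups and a log2 difference of -0.04. Foxo4 (0.02) and Foxo6 (-0.04) did not pass, and the signals of Foxo6 lay in the range of the receptor probe sets.

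Of 21 regulators of FOXO factors, all of them tested, 0 rose and 4 fell, beside 6.18% risen and 6.91% fallen among all genes tested. Those with the lowest statistics were the kinase genes Sgk3 and Sgk1, whose products phosphorylate FOXO factors. Sgk3 fell by 0.65 (SE 0.06, limma adjusted p = 0.000553), with signals of 1289 and 1384 in ΔFosB against 2074 and 2109 in control. Sgk1 fell by 0.59 (SE 0.10, adjusted p = 0.00588), with signals of 5115 and 5430 in ΔFosB against 8980 and 7054 in control, where the control arrays differed widely. Of 20 tested FOXO target genes 1 rose and 4 fell, beside the same shares of all genes, with a median log2 fold change of -0.13. Sesn3, a sestrin that restrains mTORC1, rose by 0.24 (SE 0.06, limma adjusted p = 0.0256). The ubiquitin ligase gene Fbxo32 and the pyruvate dehydrogenase kinase gene Pdk4 fell by 0.47 and 0.59.

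Of 17 tested partners and progenitor genes tied to SOX factors, 0 rose and 3 fell in limma, with a median of -0.04. Among all genes tested 6.18% rose and 6.91% fell. Pou3f3, a POU factor of the class that pairs with SOX factors on DNA, fell by 0.42 (SE 0.06, limma adjusted p = 0.00290), with signals of 1342 and 1347 in ΔFosB against 1823 and 1786 in control. Prom1, a membrane protein gene of progenitors, fell by 0.49 (SE 0.08, adjusted p = 0.00469). Of 6 tested genes of immature neurons, a stage marked by SOXC factors, 1 rose, the collapsin response mediator gene Crmp1 (0.24, SE 0.06, adjusted p = 0.0296).

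The remaining forkhead genes gave no call, and their values spread to both sides of 0. Foxc2, a factor of vessels and mesenchyme, had the largest fold change among them, with signals of 982 and 1215 in ΔFosB against 832 and 929 in control. The ΔFosB arrays differed by 0.31 on the log2 scale in size, as much as the groups did (log2 ratio 0.31, SE 0.11, limma adjusted p = 0.0848). Foxl2, a factor of the pituitary and ovary, and its opposite-strand transcript Foxl2os start from overlapping windows. Foxl2 had signals of 1103 and 1155 in ΔFosB against 950 and 1030 in control, and Foxl2os 1193 and 1061 against 924 and 978. Neither passed, at log2 fold changes of 0.19 and 0.24. Foxj3 had 0.16 and Foxj2 -0.05, and the FOXK genes, repressors of autophagy genes, had 0.10 (Foxk1) and 0.05 (Foxk2). Foxe1, Foxe3, Foxi1, Foxi2, Foxb2 and Foxs1 lay between 0.09 and 0.22, and Foxf1, Foxf2 and Foxq1 between -0.16 and 0.01.

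Some forkhead genes neighbour each other on a chromosome, and their values are set side by side here with no test between them. On chromosome 8 Foxf1, Foxc2 and Foxl1 lie close together, and their log2 fold changes were -0.16, 0.31 and 0.20, the last below the filter. On chromosome 13 the adjoining genes Foxq1, Foxf2 and Foxc1 had -0.01, 0.01 and 0.12, and on chromosome 4 Foxd2 and Foxe3 had 0.10 and 0.17. Foxc1 and Foxd2 also lay below the filter. The 11 genes below the filter, Foxa3, Foxc1, Foxd1, Foxd2, Foxd3, Foxd4, Foxh1, Foxl1, Foxn1, Foxp3 and Foxr1, had signals between 381 and 770. Fitted without a filter, their log2 fold changes ran from 0.07 to 0.30 and 0 passed in limma (lowest adjusted p 0.119, 3 at an unadjusted p under 0.05), against 8.09% of all 21265 genes in that fit. The median log2 fold change of all genes in that fit was 0.053. The probe set labelled Foxm1 had signals of 522 and 527 in ΔFosB against 591 and 579 in control.

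**Figure D3:**
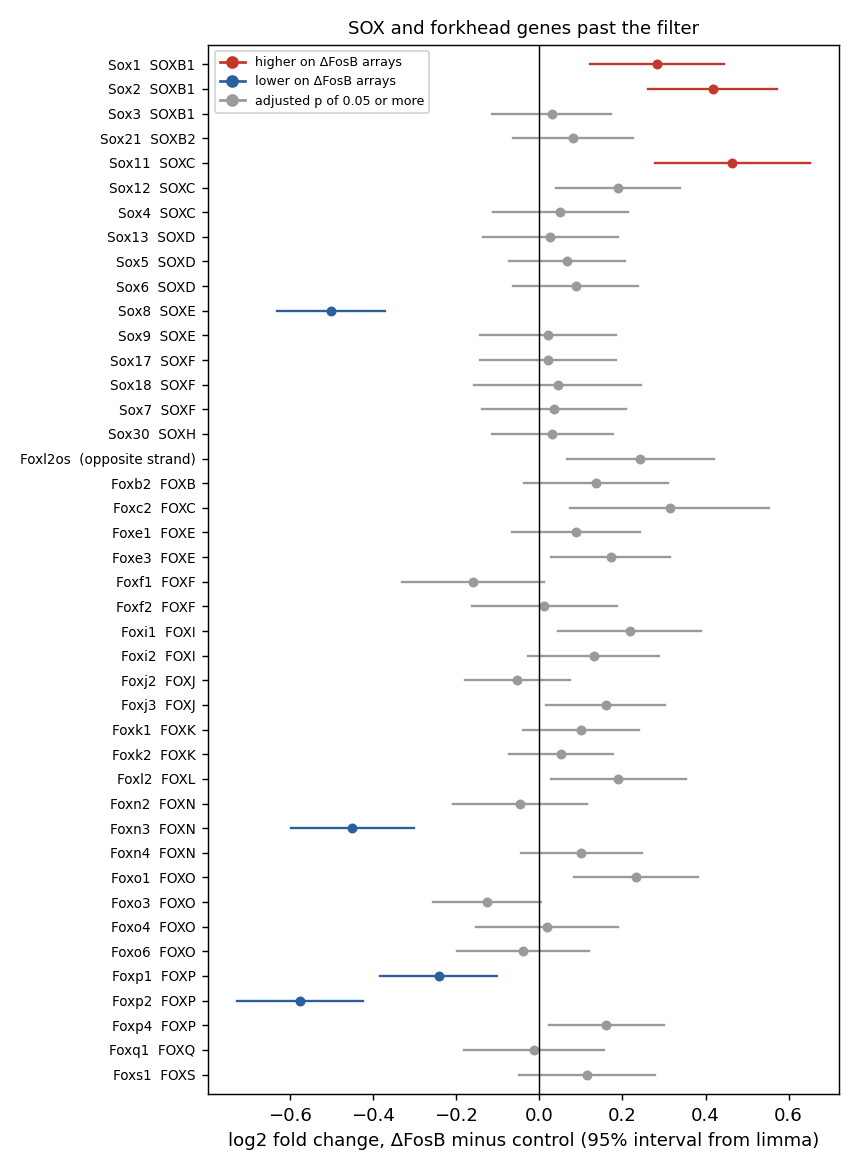
Log2 fold change (ΔFosB minus control) of the 42 genes past the filter with its 95% interval from limma, one row per gene with its subfamily, n = 2 arrays per group. Sox1, Sox2 and Sox11 lie to the right in red and Sox8, Foxn3, Foxp1 and Foxp2 to the left in blue. Relatives within FOXN and FOXP have values on different sides of 0, and the interval of Sox9, the relative of Sox8 in SOXE, spans 0.

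Subfamilies with a fallen gene held log2 fold changes on both sides of 0, while in SOXB1 (0.03 to 0.42) and SOXC (0.05 to 0.46) all lay above 0. In SOXE the log2 fold changes ran from -0.50 (Sox8) to 0.02 (Sox9), in FOXP from -0.58 (Foxp2) to 0.16 (Foxp4) and in FOXN from -0.45 (Foxn3) to 0.10 (Foxn4). The members of SOXD and SOXF lay within narrow ranges, 0.03 to 0.09 and 0.02 to 0.04. Little can be read from the SOXF range, as the Sox17 means lay below the receptor percentile and the Sox7 means just above it. All of these fold changes are values set side by side, and the differences between genes were not tested.

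**Figure D4:**
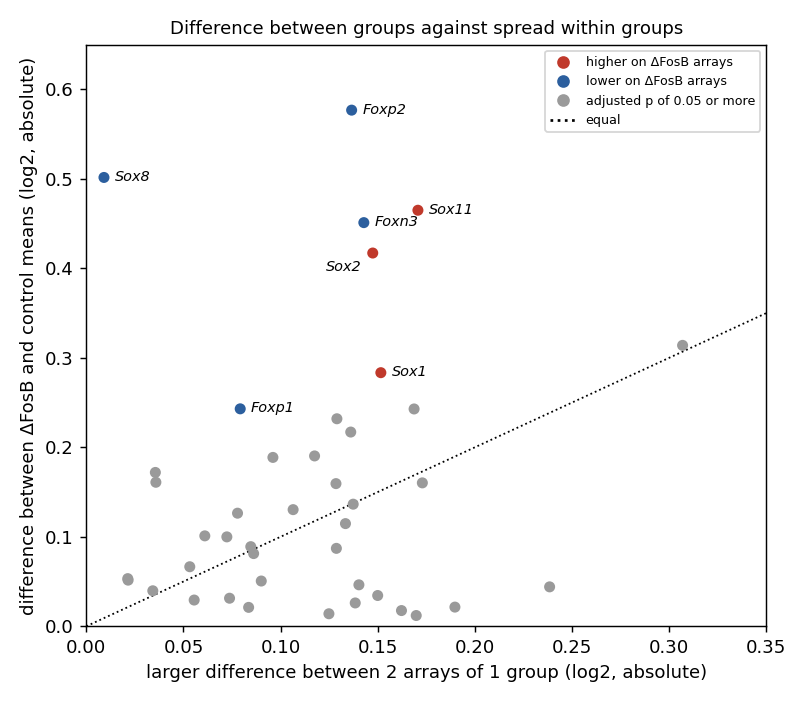
Absolute log2 difference between the ΔFosB and control means (vertical) against the larger absolute log2 difference between the arrays of one group (horizontal), one point per gene past the filter. Points above the dotted line of equality, among them all 7 called genes, differ more between groups than within either group. Sox8 has the smallest spread of the called genes, at 0.009.

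The difference between the group means exceeded the difference between the A and B arrays of either group in 25 of the 42 genes (59.5%), against 48% of all genes tested. For Sox genes this was 6 of 16 and for Fox genes 19 of 26. It also held for all 7 called genes, but a limma call itself favours such genes, so that count adds no support. The median absolute difference between arrays of a group was 0.06 in ΔFosB and 0.06 in control among the 42 genes, beside 0.07 and 0.07 among all genes.

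**Figure D5:**
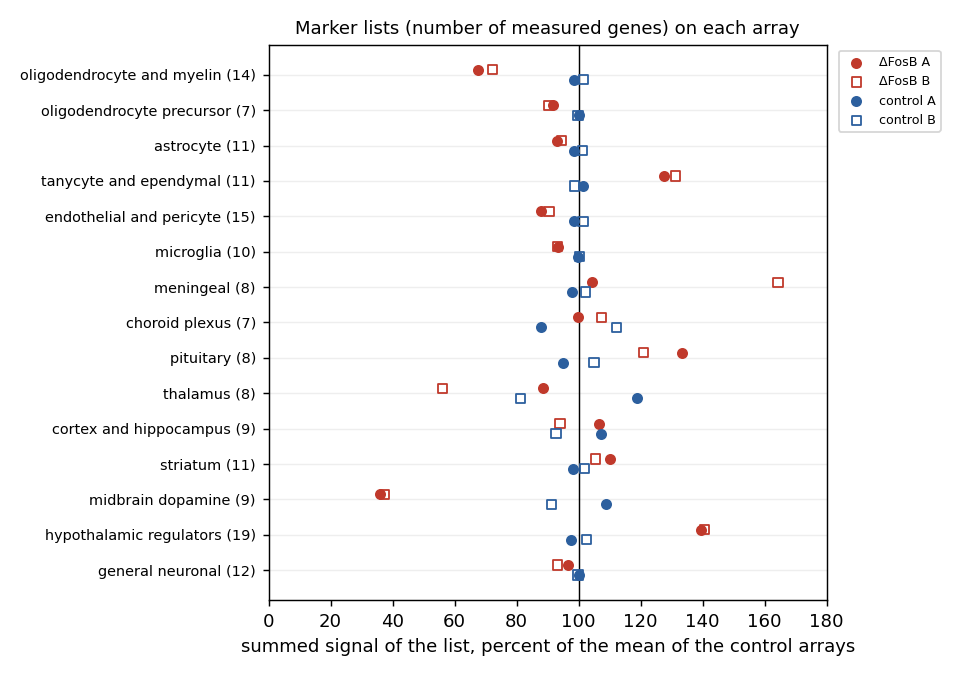
Summed signal of each marker list on each array as a percentage of the mean of the control arrays, with ΔFosB arrays in red and control arrays in blue, circles for A and squares for B. The ΔFosB arrays lie at 67.5% and 72.3% for oligodendrocyte and myelin genes, at 35.9% and 37.4% for midbrain dopamine genes and at 140% and 141% for hypothalamic regulators, and the thalamic and meningeal lists differ widely between arrays of one group.

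The labelled tissue was checked with regulators of hypothalamic identity, of which 10 of 19 rose and 1 fell, with summed signals of 28359 and 28592 in ΔFosB against 19797 and 20845 in control. None of the 19 had its mean in the receptor range in both groups. Fezf1 had signals of 2447 and 2791 in ΔFosB against 185 and 239 in control, so its control values lay inside the receptor range. Pituitary genes numbered 8, of which 5 lay in that range in both groups and 2 were tested, with 0 called in limma. Microglial genes (0 rose and 1 fell of 9), choroid plexus genes (3 rose and 0 fell of 6), meningeal genes (2 rose and 0 fell of 5) and general neuronal genes (1 rose and 3 fell of 12) complete the lists. Beside the counts of every list stand 6.18% risen and 6.91% fallen among all genes tested, and no list was tested as a set. No marker in any list was at a signal of 0. The part of any of these cell types in the SOX and forkhead values was not tested.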

How the data were processed

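Per the labels' protocols, total RNA of the hypothalamus was taken up in Trizol and turned into biotinylated cRNA for Affymetrix arrays. The authors deposited linear intensities for each probe set. MAS5 is named per the submitters' processing notes, while its scaling target and the genome build were not given in the sources used here. The sheet used equalled the series' value table (largest difference 0). The deposited ratio (fold) columns, each signal over the control mean, were not used.

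Intensities were log2 transformed with no pseudocount. Each of 21265 genes with 1 identifier was represented by its brightest probe set, and 14520 passed the filter. Symbols were updated by identifier with RefSeq (GRCm38.p6), which held 21637 of 23015 probe sets. limma 3.58.1 (R 4.3.3; lmFit, eBayes with an intensity trend, 2 against 2 arrays, no block) was used, with Benjamini-Hochberg adjustment over all genes tested. The procedure was tested on simulated data. The number of arrays limits the precision (median SE 0.066).

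Of 57 names that the rule gave, 1 Fox gene is not reported here, so that every count of members, by family or in all, is over the 56 described and leaves it out, while the fits covered all genes. The members, the lists and the naming rule were chosen with earlier results of these data known. The rule gives array values for Sox2, called members and the SOXB1, SOXC, SOXE, FOXO and FOXP members past the filter. It allows up to 2 called genes at each end of each list to be named, and for several lists none is named here. The array values of other members, and the SOX and forkhead motifs, were chosen after values were seen. Alternatives were quantile normalization, median centring, a pseudocount of 64, no filter, the upper 40% of signal, a filter at the receptor percentile, eBayes without a trend or robust, the mean of probe sets, separate probe sets, a replicate block, and each array left out in turn. Tables were made in Python 3.11.15 (numpy 2.4.6, pandas 2.3.3) and plots in matplotlib 3.10.9.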

Additional observations from a re-analysis of the deposited data

How the results depend on the processing

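Sox2, Sox8, Foxn3 and Foxp2 kept their direction and their call under all 15 alternatives, with log2 fold changes of 0.34 to 0.49, -0.56 to -0.49, -0.52 to -0.38 and -0.65 to -0.51. The 3 Sox genes that rose were 1 to 3 when an array was left out, with Sox2 as the 1 left without control replicate A. Against 0 Fox genes that rose, there was 1 with robust estimation and 1 with the mean of probe sets (Foxo1 in both), and 0 to 1 when an array was left out (Foxc2 without ΔFosB replicate A, Foxl2os without ΔFosB replicate B). The 1 Sox gene and the 3 Fox genes that fell stayed at 1 and at 2 to 3 over the alternatives. With the letters A and B as a replicate block, 4 Fox genes rose (Foxc2, Foxj3, Foxl2os and Foxo1) and Sox12 also passed (adjusted p = 0.0472), and 3824 of all genes were called, against 1902. The adjusted p of Foxo1 was then 0.00597. The letters share only a name: the A minus B differences of the 2 groups correlated at 0.242 over genes, a hint from the data and not the design. Of values that were never called, the log2 fold change turned to -0.00149 (quantile) and -0.0313 (median centring) for Sox3, -0.0286 and -0.0101 for Sox4 and -0.0373 and -0.0431 for Foxo4, and by median centring to -0.0392 for Sox9. With an array left out, Sox9 ran from -0.0735 (without control replicate A) to 0.116 and Foxo4 from -0.0636 (without ΔFosB replicate B) to 0.0986. The call count of all genes was 702 when control replicate A was left out, and 1255 for control replicate B. The cause of these changes was not tested. Genes in the range of the receptor probe sets have no reliable direction.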
